A study of Homo sapiens with 27 samples.

Results

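WWOX and STX18 are 2 protein-coding genes followed here over all samples of an RNA sequencing experiment in REH cells. They were chosen from 60619 annotated genes because both had far fewer reads with one GapmeR against the long noncoding RNA lnc-ASTN1-1, GapmeR1, than with the other, GapmeR2. WWOX was also low with both GapmeRs against lnc-RTN4R-1. Values that served this choice are described without a test, and tests are given for the other comparisons only. Both genes were among the 16268 genes that passed the filter on low counts.

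REH cells are a long-established human line from B-cell precursor leukemia, with a fusion of ETV6 and RUNX1. LNA GapmeRs are antisense oligonucleotides whose ends hold locked nucleic acids around a DNA centre, and RNase H cuts RNA that pairs with them. All groups were the same line, harvested after 72 h in culture with medium alone (2 samples), a non-targeting GapmeR (NTC, 3 samples) or a targeting GapmeR. GapmeRs were added at 10 µM without a transfection reagent. The targeting groups were lnc-ASTN1-1 GapmeR1 (3 samples) and GapmeR2 (2), lnc-NKX2-3-1 GapmeR1 (2) and GapmeR2 (3), and GapmeR1 and GapmeR2 of lnc-RTN4R-1 and of lnc-TIMM21-5 (3 each). Medium and NTC together are called the 5 controls. Replicates were treated on different days according to the study, in cultures of a single cell line, so p-values measure the spread between cultures of that line. In bulk RNA, fewer cells of a kind and less RNA per cell cannot be told apart.

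WWOX encodes a tumor suppressor with WW protein-binding domains and a short-chain dehydrogenase/reductase domain. It lies across the common fragile site FRA16D, a region prone to breaks under replication stress, and its product binds partners such as p73 and JUN. STX18 encodes syntaxin 18, a membrane SNARE of the endoplasmic reticulum. Together with BNIP1, USE1 and SEC22B it receives COPI-coated vesicles that return from the Golgi, with the help of a tether made of NBAS, RINT1 and ZW10. In hg38, WWOX (ENSG00000186153) spans chr16:78099400-79212667 on the plus strand, which is 1113.3 kb, and its canonical transcript has 9 exons. STX18 (ENSG00000168818) spans chr4:4415742-4542346 on the minus strand, which is 126.6 kb, with 11 exons. Of 16024 tested genes with coordinates, 20 had a longer span than WWOX and 1909 a longer span than STX18.

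Libraries held 14627110 to 22750945 counts, which were 71.48% to 77.0% of the reads of each library. Each target was lower with both of its own GapmeRs than in the controls. lnc-ASTN1-1 stood at 10.2 ± 0.457 CPM (counts scaled to a common library size; SD, n = 3) with GapmeR1 and 13.2 ± 1.91 (n = 2) with GapmeR2, against 25.3 ± 1.5 in the controls (n = 5). lnc-ASTN1-1 was also below every control with 3 GapmeRs against other RNAs. It stood at 66.3% and 63.4% of its control mean with lnc-RTN4R-1 GapmeR1 and GapmeR2, and at 71.5% with lnc-NKX2-3-1 GapmeR1. With lnc-NKX2-3-1 GapmeR2 and lnc-TIMM21-5 GapmeR1 and GapmeR2 it stood at 96.9%, 96.1% and 95.3%. lnc-RTN4R-1 stood at 28.0% and 22.5% of its control mean with its own GapmeR1 and GapmeR2. The other targets were scarce, with 1 to 4 and 0 to 4 counts of lnc-NKX2-3-1 per sample under its GapmeR1 and GapmeR2 and 6 to 23 in the controls, and 1 to 10 counts of lnc-TIMM21-5 under its GapmeRs against 20 to 40. B-cell precursor markers summed to 4820 to 6160 CPM in every sample, although VPREB1 had no count. T-cell and erythroid markers summed to at most 0.589 and 0.0482 CPM, with CD3D, CD3G and HBB at 0, and stromal markers to 6.1 to 17.3 CPM. Myeloid markers summed to 86.2 to 133 CPM in the controls, 164 to 197 with lnc-NKX2-3-1 GapmeR1 and 294 to 449 with lnc-RTN4R-1 GapmeR2, without overlap with the controls in either group. Nearly all of this was MPO, at 291 to 445 CPM with lnc-RTN4R-1 GapmeR2 against 84.8 to 132 in the controls. There CSF1R had 2.03 to 2.59 CPM against 0.34 to 1.04 in the controls, and LYZ 0.231 to 0.348 against 0 to 0.217. CD14 overlapped with the controls, at 0.389 to 0.923 against 0.252 to 0.488 CPM, and ELANE was at 0. With lnc-RTN4R-1 GapmeR1 myeloid markers summed to 82.5 to 120 CPM. The part of these markers in the values of WWOX was not tested.

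The GapmeR sequences are shown first because the contrast that singled out both genes lies between oligonucleotides against the same RNA. GapmeR names of the study's oligonucleotide list were taken to match the sample labels. Each sequence was compared with the sense strand of the unspliced genes, and 6 of the 9 GapmeRs, those against the 3 RNAs with a GapmeR that came with low WWOX, are each shown with a site of their longest pairing in WWOX or STX18, and lnc-RTN4R-1 GapmeR1 also with another WWOX site of 2 mismatches. GapmeRs and sites are both written 5′ to 3′. Capitals mark the longest unbroken paired run in a GapmeR, and every base that pairs in a site.
lnc-ASTN1-1 GapmeR1, as paired with STX18: taATCTGCCAGGAGTg
STX18 site, chr4:4530120-4530135, minus strand, intron 1: aACTCCTGGCAGATgA
WWOX site, chr16:78580482-78580497, plus strand, intron 8: gACTCCTGGCAGATgc
WWOX site, chr16:79099025-79099040, plus strand, intron 8: CACTCCTGGCAGAagg
lnc-ASTN1-1 GapmeR2: gtcTGAAGTAATGGA
WWOX site, chr16:78880291-78880305, plus strand, intron 8: TCCATTACTTCActC
lnc-RTN4R-1 GapmeR1: GCATTCATGGGTtaag
WWOX site, chr16:78253575-78253590, plus strand, intron 5: CaTgACCCATGAATGC
WWOX site, chr16:78940172-78940187, plus strand, intron 8: CTTAAagCATGAATGC
lnc-RTN4R-1 GapmeR2: tGCTGAGACATCtagg
WWOX site, chr16:78475701-78475716, plus strand, intron 8: ttctGATGTCTCAGCc
lnc-NKX2-3-1 GapmeR1: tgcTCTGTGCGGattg
WWOX site, chr16:78542597-78542612, plus strand, intron 8: CctaCCGCACAGAtCc
lnc-NKX2-3-1 GapmeR2: ctGATTTTTAGTAGTG
WWOX site, chr16:78652240-78652255, plus strand, intron 8: CACTACTAAAAATCca

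lnc-ASTN1-1 GapmeR1 paired with an unbroken run of 13 bases in both genes. The STX18 site had 2 mismatches over the 16 bases and lay 12.2 kb from the start of the gene, while both WWOX sites had 3 mismatches and lay 481.1 and 999.6 kb from its start. A run as long as this was found in 62 of 16024 genes (0.387%). lnc-ASTN1-1 GapmeR2 had a run of 12 bases in WWOX, with a run as long or longer in 1.32% of genes, and one of 8 bases in STX18, as long or longer in 70.0%. All sites printed above are intronic. In spliced transcripts the longest runs of lnc-ASTN1-1 GapmeR1 were 9 bases for WWOX and 11 for STX18, and its full complement in its own target was present only after splicing, where the longest run in the unspliced gene was 12 bases.

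WWOX was low in 4 of the 10 groups. Its counts with lnc-ASTN1-1 GapmeR1 were 192, 113 and 156 in replicates 1, 2 and 3, or 11, 7.82 and 8.04 CPM. With lnc-ASTN1-1 GapmeR2 they were 688 and 619 in replicates 1 and 3, or 38.0 and 35.5 CPM. In the controls the CPM were 47.1 and 41.7 with medium and 41.2, 40.7 and 38.2 with NTC. All samples with GapmeR1 thus lay far below all samples with GapmeR2 and all controls. GapmeR1 was 4.09-fold below GapmeR2 and 4.65-fold below the controls, and GapmeR2 was 1.13-fold below the controls, just under the lowest of them in both samples. These values chose the gene and carry no test. WWOX ranked 7 from the most lowered of 16268 genes between both GapmeRs, where 0.553% of genes were called (edgeR quasi-likelihood test, Benjamini-Hochberg adjusted p under 0.05), 90 in number or 272 with the replicate number as a block. It ranked 5 against the controls, where 1.2% were called, 196 or 776 with the block.

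STX18 followed WWOX in this contrast. Its counts were 154, 129 and 179 with lnc-ASTN1-1 GapmeR1, or 8.83, 8.93 and 9.22 CPM, and 619 and 588 with GapmeR2, or 34.2 and 33.7 CPM. In the controls it had 33.7 and 35.4 CPM with medium and 35.1, 33.2 and 31.0 CPM with NTC. GapmeR1 samples did not overlap with any other sample, while GapmeR2 samples lay within the range of the controls. STX18 was 3.77-fold lower with GapmeR1 than with GapmeR2 and 3.74-fold lower than in the controls, ranking 8 in both, again with no test. lnc-ASTN1-1 GapmeR2 differed from the controls by 0.01 in log2 for STX18 and by -0.18 for WWOX, in a comparison where 0.0184% of genes were called, which are 3 genes, or 22 with the block.

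**Figure D1:**
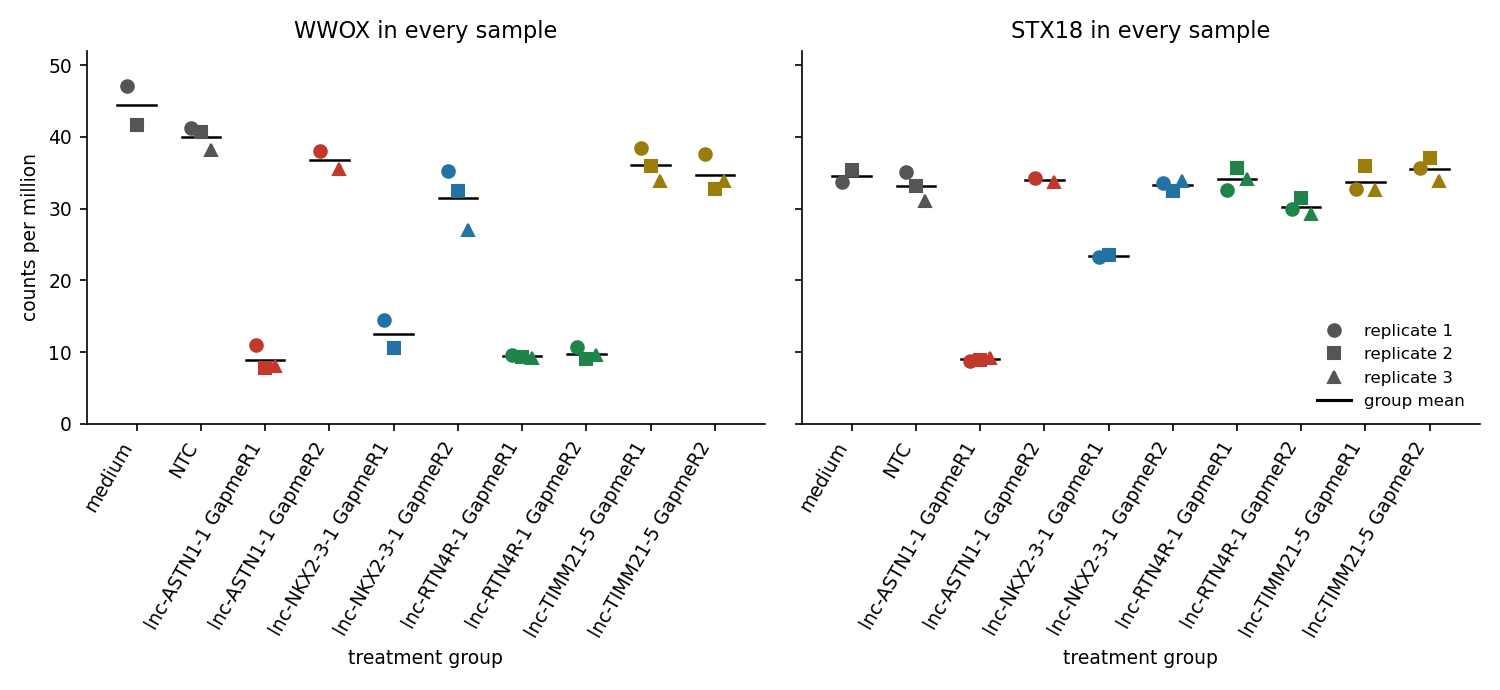
CPM of WWOX (left) and STX18 (right) in each of 27 samples, by treatment group on the horizontal axis; symbols give the replicate number and horizontal lines the group mean. WWOX was at or below 14.5 CPM in 4 groups and at or above 27 CPM in the other 6, while STX18 was near 9 CPM with lnc-ASTN1-1 GapmeR1 and near 23 CPM with lnc-NKX2-3-1 GapmeR1.

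With lnc-RTN4R-1 GapmeR1, WWOX had 9.66, 9.35 and 9.23 CPM. With lnc-RTN4R-1 GapmeR2 it had 10.7, 9.05 and 9.63 CPM. Both groups lay below every control and were chosen for it, at 4.43-fold and 4.26-fold below the control mean, ranks 5 and 22 among the genes tested. Within each day the levels were 23.0% to 24.2% of that day's NTC with GapmeR1 and 22.3% to 26.0% with GapmeR2. Between these GapmeRs the log2 fold change of WWOX was -0.06, a description with no test, since the gene was chosen as low with both. In this contrast 9.09% of genes were called, 1479 or 4275 with the block.

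STX18 did not share this pattern. With lnc-RTN4R-1 GapmeR1 it had 32.6, 35.7 and 34.1 CPM, overlapping with the controls, a log2 difference of 0.02 (SE 0.058, edgeR adjusted p = 0.975), with an interval from -0.10 to 0.13. In that comparison 2.32% of genes were called, 377 or 1432 with the block. With GapmeR2 it had 29.9, 31.5 and 29.2 CPM, and 1 of these 3 samples lay above the lowest control. The log2 difference from the controls was -0.16 (SE 0.058, edgeR adjusted p = 0.0955), and -0.15 with the replicate block (adjusted p = 0.0352), where 9.56% of genes were called, 1555 or 4278 with the block. Between both GapmeRs the log2 difference in STX18 was 0.18 (SE 0.065, edgeR adjusted p = 0.096), with adjusted p = 0.0236 under the block.

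Both genes fell with lnc-NKX2-3-1 GapmeR1, which the choice did not use. WWOX had 14.5 and 10.6 CPM, below the lowest of the 5 controls. The log2 fold change was -1.73 (SE 0.129, edgeR adjusted p = 3.03e-10), a 3.31-fold lower level, and the samples stood at 35.1% and 26.1% of the NTC of their day. STX18 had 23.3 and 23.6 CPM, also below every control, with a log2 fold change of -0.52 (SE 0.068, edgeR adjusted p = 3.5e-06), which is 1.44-fold lower. These samples stood at 66.3% and 71.0% of the NTC of their day. The 2 calls stand against a broad background, since 19.7% of genes were called in this comparison, 3203 or 5830 with the block, of which 1879 were lower, so that a call alone does not set these genes apart.

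With lnc-NKX2-3-1 GapmeR2, WWOX had 35.2, 32.4 and 27 CPM. All 3 were below all controls, and the difference of -0.40 in log2 (SE 0.101) had an unadjusted p = 0.000589 and an edgeR adjusted p = 0.427. The adjusted p was 0.000142 with the replicate block and 0.0189 without the low-count filter, at log2 differences of -0.39 and -0.40. STX18 had 33.6, 32.4 and 33.8 CPM, within the controls, and its log2 difference was -0.02 (SE 0.058, adjusted p = 0.963). In this comparison 0.0307% of genes were called, which are 5 genes, or 515 with the block. Set against each other, GapmeR1 was lower than GapmeR2, with log2 fold changes of -1.33 for WWOX (SE 0.136, edgeR adjusted p = 8.97e-08) and -0.51 for STX18 (SE 0.074, adjusted p = 1.97e-05), with no overlap of samples in either gene. This contrast was added after the levels had been seen, and 17.8% of genes were called in it, 2898 or 5439 with the block.

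The lnc-TIMM21-5 GapmeRs left both genes near the controls. WWOX had 38.5, 36.0 and 33.9 CPM with GapmeR1, partly overlapping with the controls, a log2 difference of -0.21 (SE 0.099, edgeR adjusted p = 0.842), where 0.209% of genes were called, 34 or 484 with the block. With GapmeR2 it had 37.6, 32.8 and 33.8 CPM, all just below the lowest control, a log2 difference of -0.26 (SE 0.1, adjusted p = 0.99995). With the block this was -0.25 with adjusted p = 0.035. In that comparison 0.0676% of genes were called, 11 or 95 with the block. STX18 had 32.6 to 35.9 CPM with GapmeR1 and 33.8 to 37.0 CPM with GapmeR2, with log2 differences of 0.00 and 0.07 and intervals from -0.11 to 0.12 and from -0.04 to 0.19.

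NTC against medium compared an oligonucleotide without a target with none. WWOX was lower in all 3 NTC samples than in both medium samples, at -0.15 in log2 (SE 0.123, edgeR adjusted p = 0.886), and STX18 overlapped, at -0.06 (SE 0.072, adjusted p = 0.886). No gene was called in this comparison (0.0%) by edgeR or by DESeq2, while 575 had an unadjusted edgeR p under 0.05. With the replicate block 11 were called.

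**Figure D2:**
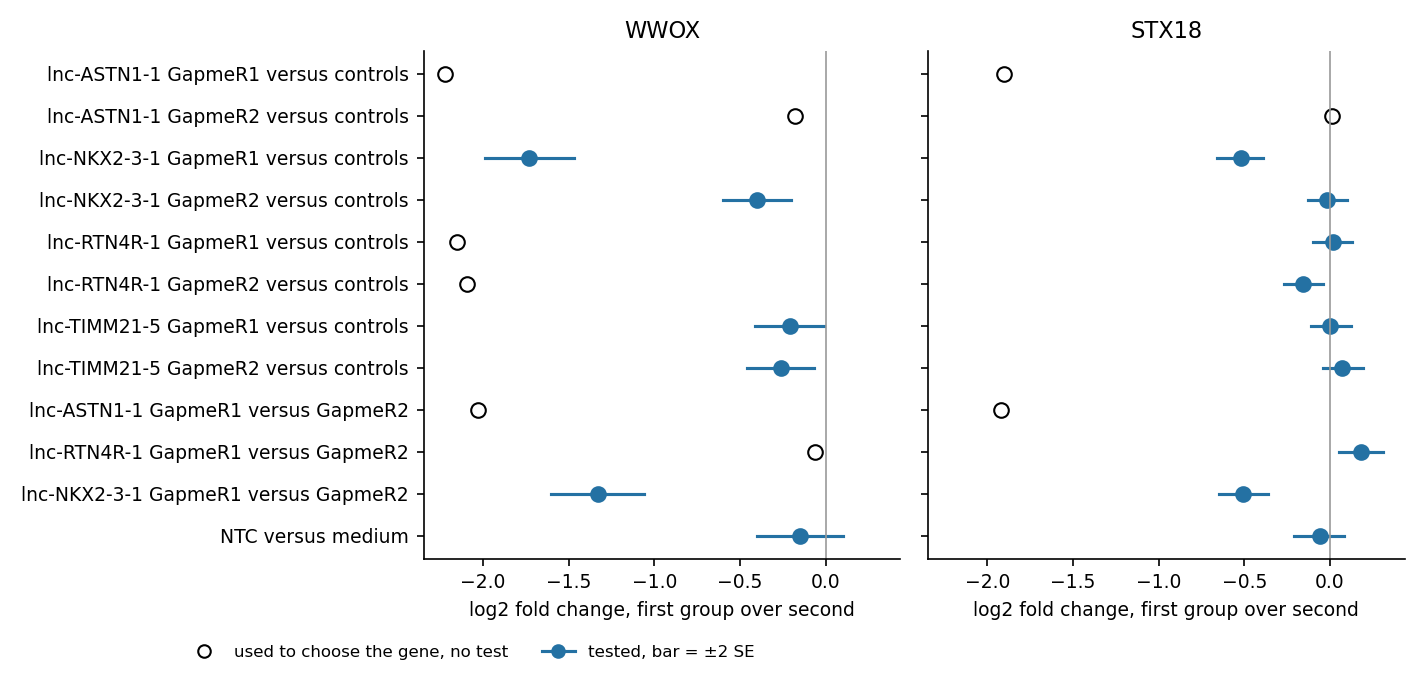
Log2 fold changes of WWOX (left) and STX18 (right) in 12 comparisons, with the first group named over the second; open circles are values that served to choose the genes and filled circles tested values with bars of 2 SE to each side. Among tested values only those of lnc-NKX2-3-1 GapmeR1, against the controls and against GapmeR2, passed the test in the fit without block.

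Ordered by mean, WWOX stood at 8.96 ± 1.78 CPM with lnc-ASTN1-1 GapmeR1 (SD, n = 3), 9.41 ± 0.223 with lnc-RTN4R-1 GapmeR1 (n = 3), 9.80 ± 0.85 with lnc-RTN4R-1 GapmeR2 (n = 3) and 12.6 ± 2.73 with lnc-NKX2-3-1 GapmeR1 (n = 2). None of these neighbours in the order differed beyond their spread. A gap of 19.0 CPM, larger than the SDs of both groups together, separated them from lnc-NKX2-3-1 GapmeR2 at 31.6 ± 4.17 (n = 3). From there the means rose to 34.7 and 36.2 with lnc-TIMM21-5 GapmeR2 and GapmeR1, 36.8 with lnc-ASTN1-1 GapmeR2, 40.0 with NTC and 44.4 with medium, in steps no larger than the SDs of the neighbours. For STX18 the order began with 9.0 ± 0.203 CPM with lnc-ASTN1-1 GapmeR1 (n = 3), then 23.4 ± 0.213 with lnc-NKX2-3-1 GapmeR1 (n = 2) and 30.2 ± 1.17 with lnc-RTN4R-1 GapmeR2 (n = 3). Both steps, of 14.4 and 6.8 CPM, exceeded the SDs of their groups, and the other 7 groups lay between 33.1 and 35.4 CPM without such a step.

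The genes beside WWOX and STX18 were read as a check on whether a whole region moved. They are the overlapping genes and the 5 nearest on either side that passed the low-count filter, 11 for each gene. Between the lnc-ASTN1-1 GapmeRs, 0 of 11 neighbours of WWOX and 0 of 11 of STX18 were called, against 0.553% of all genes. With the replicate block 1 of 11 was called beside each gene, ADAMTS18 near WWOX at -0.73 (SE 0.179, edgeR adjusted p = 0.0186) and STK32B near STX18 at -0.25 (SE 0.058, adjusted p = 0.0105). The block called more of all genes in every comparison, by the numbers given above. Block calls of neighbours, here and below, stand against those numbers. The median log2 fold changes of the neighbours were -0.07 and -0.03. CMC2, a gene for a mitochondrial protein beside WWOX, stood at 53.9 ± 5.3 CPM with GapmeR1 (SD, n = 3) and 56.5 ± 3.74 with GapmeR2 (n = 2). STX18-AS1, the antisense transcript whose gene overlaps the start of STX18, stood at 6.52 ± 0.736 and 6.48 ± 1.46 CPM. The libraries were counted by strand, and STX18 had 6 to 20 counts per sample on the other strand.

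Against the controls, 1 neighbour of WWOX was called lower with lnc-ASTN1-1 GapmeR1, where 1.2% of all genes were called. ADAMTS18, a secreted metalloprotease gene 664.4 kb away, changed by -0.75 in log2 (SE 0.18, edgeR adjusted p = 0.0322). This gene also fell with lnc-NKX2-3-1 GapmeR1, at -1.81 in log2 (SE 0.231, adjusted p = 2.38e-06), and with lnc-RTN4R-1 GapmeR2, at -3.41 (SE 0.249, adjusted p = 4.57e-10). In these groups it stood at 3.37 ± 1.04, 1.63 ± 0.108 and 0.533 ± 0.291 CPM. With lnc-RTN4R-1 GapmeR1, where WWOX was as low, it stood at 8.37 ± 0.529 CPM and 0 of 11 neighbours were called. With the block 2 of 11 were higher there, ADAMTS18 at 0.52 (edgeR adjusted p = 0.00193) and NUDT7 at 0.38 (adjusted p = 0.0342). VAT1L, the nearest gene on that side at 119.3 kb, fell with lnc-NKX2-3-1 GapmeR1, at -1.33 in log2 (SE 0.286, adjusted p = 0.00153).

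Beside STX18, 4 of 11 neighbours fell with lnc-NKX2-3-1 GapmeR1, where 19.7% of all genes were called and 11.6% were lower. STX18-AS1 changed by -1.55 (SE 0.172, edgeR adjusted p = 2.76e-07), the kinase gene STK32B by -1.39 (SE 0.101, adjusted p = 2.11e-10), LRPAP1, a receptor chaperone gene, by -0.65 (SE 0.074, adjusted p = 4.03e-07), and the unnamed ENSG00000280310 by -2.28 (SE 0.545, adjusted p = 0.00388). STX18-AS1 also fell with each lnc-RTN4R-1 GapmeR, at -0.65 in log2 for both (adjusted p = 0.00642 and 0.00258), while STX18 itself was not called. In all, 2 of 11 neighbours of STX18 were lower with each of these GapmeRs, where 0.818% and 5.25% of all genes were lower with GapmeR1 and GapmeR2. With the replicate block, STK32B was also called lower with lnc-ASTN1-1 GapmeR1 against the controls, at -0.34 (edgeR adjusted p = 1.96e-06), and with lnc-RTN4R-1 GapmeR1, at -0.20 (adjusted p = 0.00246). The homeobox gene MSX1 was called higher with both lnc-RTN4R-1 GapmeRs under the block, at 0.42 (adjusted p = 0.0207) and 0.49 (adjusted p = 0.00294).

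**Figure D3:**
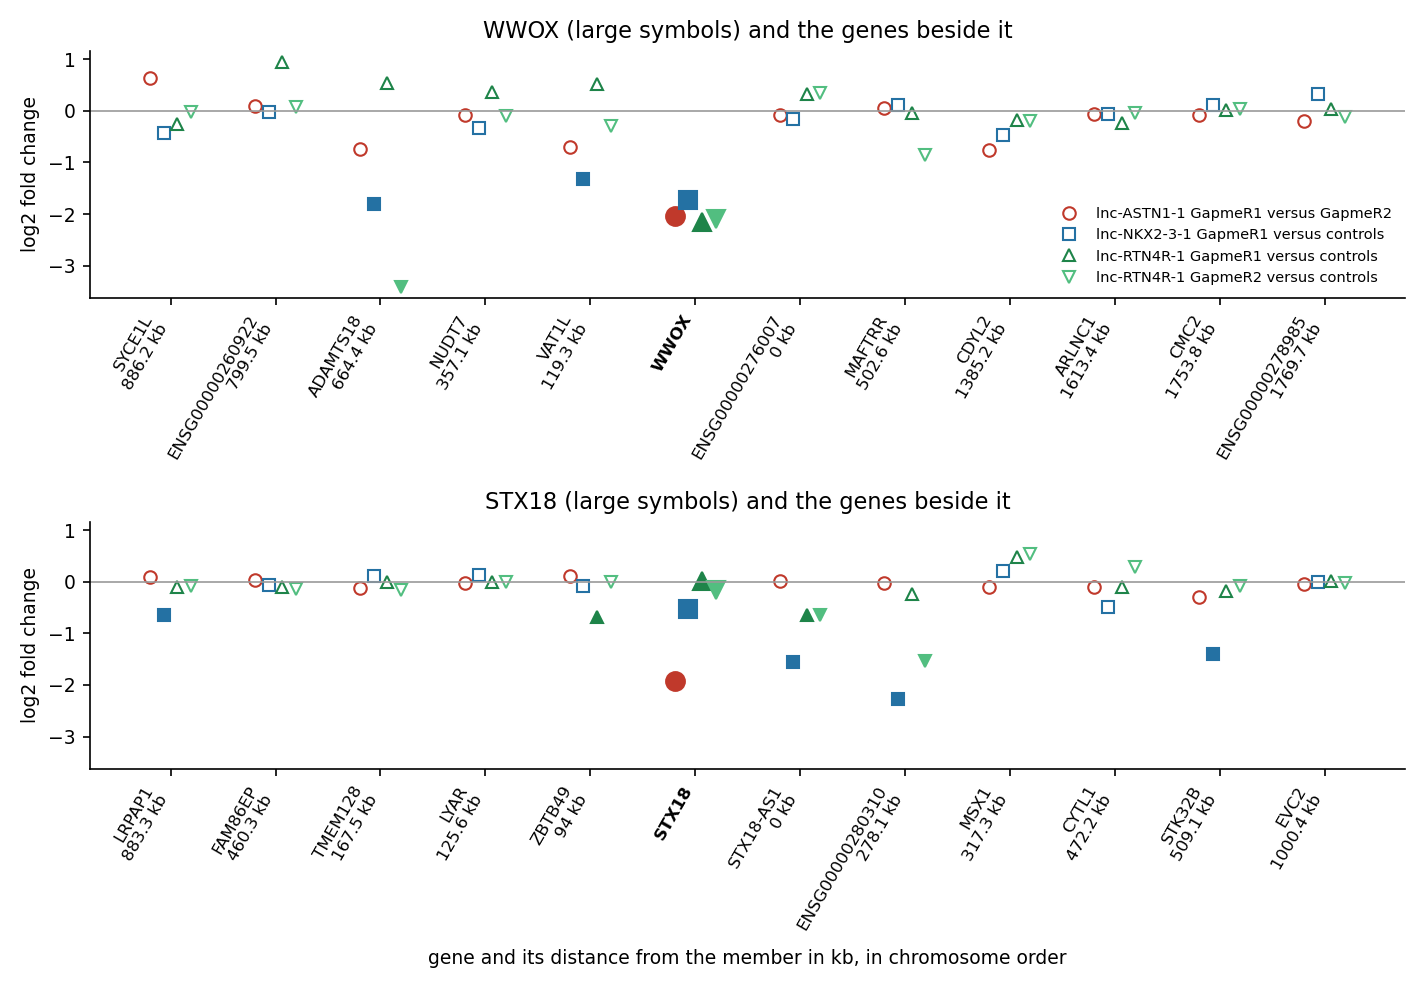
Log2 fold changes of WWOX (top) and STX18 (bottom), drawn large, and of the 11 genes beside each in chromosome order, with the distance in kb under each name; filled small symbols are called genes. In the lnc-ASTN1-1 contrast no neighbour was called in the fit without block, and ADAMTS18 reached -3.41 with lnc-RTN4R-1 GapmeR2.

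The length of pairing with the other GapmeRs did not follow the order of the WWOX levels. The longest run in WWOX was that of lnc-NKX2-3-1 GapmeR2, 14 bases with 2 mismatches over the whole oligonucleotide, as long or longer in 25 genes (0.156%), and WWOX stood at 75.6% of its control mean with this GapmeR. lnc-NKX2-3-1 GapmeR1 paired over at most 9 bases, as it did or for longer in 38.1% of genes, and WWOX stood at 30.1%. lnc-RTN4R-1 GapmeR1 had a run of 12 bases (1.24% of genes) and 2 sites with 2 mismatches, and its GapmeR2 a run of 11 bases (6.42%) with no such site, at 22.5% and 23.5% of the control mean. Each lnc-TIMM21-5 GapmeR had a run of 12 bases, with WWOX at 86.5% and 83.2%, and NTC one of 11. In STX18, lnc-NKX2-3-1 GapmeR1 had a run of 10 bases (12.5% of genes), the lnc-TIMM21-5 GapmeRs and lnc-NKX2-3-1 GapmeR2 runs of 11, lnc-RTN4R-1 GapmeR1 and GapmeR2 runs of 9 and 10, and NTC one of 8. The sites are matches of letters, and whether a GapmeR bound there was not tested.

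Other genes with a run of 13 bases or more for lnc-ASTN1-1 GapmeR1 were counted after its runs in both genes had been seen. Leaving out WWOX, STX18 and the targets, 60 such genes were tested, of which 16 (26.7%) were called lower with GapmeR1 than with GapmeR2 and 1 higher, with a median log2 fold change of -0.25. Over all genes 0.529% were lower and the median was 0.007. The strongest of those called were NBEAL1 with -1.79 (adjusted p = 5.73e-05) and KCTD1 with -1.75 (adjusted p = 4.11e-05). Of 85 genes called lower and searched, 18 had such a run. Both counts include WWOX and STX18, which this contrast chose, so the 16 above are the count without them. The 60 genes were also long, with a median span of 203.9 kb against 24.3 kb for all genes searched, and the share of length in these counts was not tested.

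**Figure D4:**
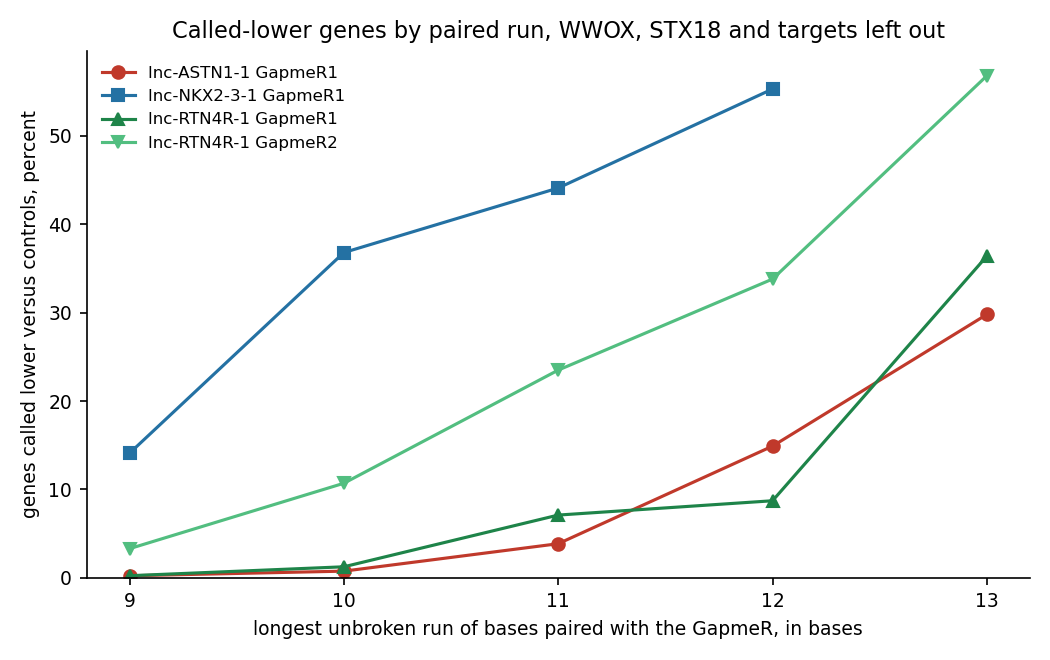
Share of genes called lower against the controls in percent, by the longest unbroken run of bases paired with the GapmeR, for the 4 GapmeRs with low WWOX; classes under 20 genes, both genes and the targets are left out. For lnc-ASTN1-1 GapmeR1 the share was 0.234% at 9 bases and 29.8% at 13 bases.

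For the other GapmeRs with low WWOX these shares also rose with the run, over classes of at least 20 genes. The median span of the genes differed between these classes, from 30.4 kb at 9 bases to 214.1 kb at 13 for lnc-ASTN1-1 GapmeR1, while for lnc-NKX2-3-1 GapmeR1 it was 53.3, 103.0, 99.9 and 117.5 kb at 9, 10, 11 and 12 bases. At the length of the run in WWOX itself, 14.1% of genes were lower with lnc-NKX2-3-1 GapmeR1 (9 bases), 8.72% with lnc-RTN4R-1 GapmeR1 (12 bases), 23.5% with lnc-RTN4R-1 GapmeR2 (11 bases) and 29.8% with lnc-ASTN1-1 GapmeR1 (13 bases). In the smaller classes left out, the share for lnc-RTN4R-1 GapmeR1 was 11.1% of 9 genes at 14 bases and 25.0% of 4 at 15, below its 36.4% at 13. For the other GapmeRs with low WWOX it kept rising in the smaller classes.

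Gene length moved with the calls as well. Of 24 other genes that span 1000 kb or more, the class of WWOX, 62.5% were lower with lnc-NKX2-3-1 GapmeR1, 41.7% with lnc-RTN4R-1 GapmeR2, 8.33% with lnc-ASTN1-1 GapmeR1 and 4.17% with lnc-RTN4R-1 GapmeR1. The median log2 fold changes of these genes were -0.99, -0.33, -0.14 and -0.08. Over all genes tested, 11.6%, 5.25%, 0.996% and 0.818% were lower in the same order. The shares of the long genes rest on 15, 10, 2 and 1 genes, too few with the last 2 GapmeRs to compare. With each of the lnc-RTN4R-1 GapmeRs 1 long gene was also higher. Between the lnc-ASTN1-1 GapmeRs 0 of the 24 were lower. Of 2098 other genes of 100 to 300 kb, the class of STX18, 22.8% were lower with lnc-NKX2-3-1 GapmeR1 and 2.14% with lnc-ASTN1-1 GapmeR1. What length contributed to either gene was not tested.

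**Figure D5:**
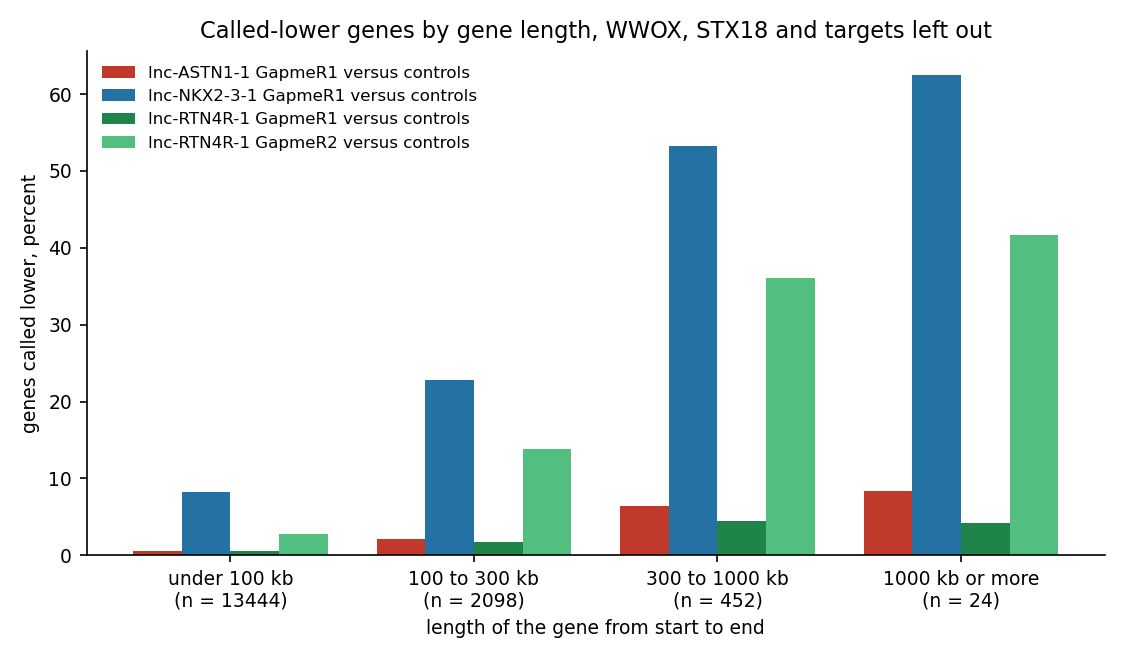
Share of genes called lower against the controls in percent, by the length of the gene from start to end, for the 4 GapmeRs with low WWOX; WWOX, STX18 and the targets are left out. Of 24 genes of 1000 kb or more, 15 (62.5%) were lower with lnc-NKX2-3-1 GapmeR1 and 1 (4.17%) with lnc-RTN4R-1 GapmeR1.

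Genes that lie across other common fragile sites were counted as a list. Of 26 listed, 15 were tested. PTPRG, a receptor tyrosine phosphatase gene, was the single one called between the lnc-ASTN1-1 GapmeRs, at -0.43 (SE 0.093, edgeR adjusted p = 0.025), and the list median was -0.07. With the replicate block 3 were lower. The block called more of all genes in every comparison, by the numbers given above, and its counts for this list stand against those. Against the controls, 3 were lower with lnc-ASTN1-1 GapmeR1 (PTPRG, CSMD1 and DMD), or 6 with the block, where 0.996% of all genes were lower. With lnc-NKX2-3-1 GapmeR1, 10 were lower and 0 higher, or 12 lower with the block. The median was -0.905 against -0.004 for all genes, of which 11.6% were lower. With lnc-RTN4R-1 GapmeR2 the list median was -0.383 against 0.005 for all genes, of which 5.25% were lower. There 8 list genes were lower and 0 higher, or 10 lower with the block. They included PTPRG at -1.69 (adjusted p = 3.21e-13), the neuronal adaptor gene DAB1 at -1.14 (adjusted p = 2.82e-09) and the adhesion gene SDK1 at -1.08 (adjusted p = 9.96e-09). With lnc-RTN4R-1 GapmeR1, DMD, the dystrophin gene, at -0.72 (adjusted p = 0.00211) and PTPRG at -0.35 (adjusted p = 0.0074) were lower, and MACROD2 was higher at 0.48 (adjusted p = 0.0448), with a median of -0.047, where 2.32% of all genes were called. With the block 4 were lower and 1 higher. With lnc-TIMM21-5 GapmeR1, where WWOX was near the controls, 2 list genes were lower and 0 higher, and 0.184% of all genes were lower. They were USP31 at -0.49 (edgeR adjusted p = 3.13e-05) and DMD at -0.78 (edgeR adjusted p = 0.00664). With lnc-TIMM21-5 GapmeR2, lnc-NKX2-3-1 GapmeR2 and lnc-ASTN1-1 GapmeR2 0 list genes were called in the fit without block. Among genes of 1000 kb or more, 62.5% were lower with lnc-NKX2-3-1 GapmeR1 and 41.7% with lnc-RTN4R-1 GapmeR2. Among genes of 300 to 1000 kb these shares were 53.3% and 36.1%. What length contributed to the counts of this list was not tested.

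Genes of the SNARE and tether machinery were counted next, in a list that goes beyond the complex of STX18 to SNAREs of the Golgi and endosomes. Of its 23 genes, all tested, 0 were called between the lnc-ASTN1-1 GapmeRs (median log2 fold change -0.045 against 0.007 for all genes), and 1 was lower with the replicate block. Of 20 COPI coat and retrograde transport genes, 0 were called (median -0.038). VTI1A, a Golgi SNARE, was the single gene of the SNARE and tether list called for lnc-ASTN1-1 GapmeR1 against the controls, at -0.30 (SE 0.06, edgeR adjusted p = 0.00561). With the block 3 of that list were lower. With lnc-NKX2-3-1 GapmeR1, 5 genes of this list were lower and 1 higher, where 19.7% of all genes were called and 11.6% were lower. The 3 with the smallest adjusted p were VTI1A at -1.08 (adjusted p = 5.11e-11), SEC22B, which pairs with STX18 in its SNARE complex, at -0.59 (adjusted p = 6.45e-06), and the endosomal SNARE STX8 at -0.64 (adjusted p = 4.67e-05). With lnc-RTN4R-1 GapmeR2, where STX18 was not called, 4 genes of the list were lower and STX7 was higher, where 9.56% of all genes were called. The lower genes were led by the tether subunit NBAS at -0.86 (edgeR adjusted p = 2.66e-10), STX8 at -0.67 (adjusted p = 8.71e-06) and VTI1A at -0.37 (adjusted p = 0.000134). The block gave 6 lower and 1 higher with lnc-RTN4R-1 GapmeR2. Block counts of this list stand against the larger numbers of all genes called with the block, given above. With lnc-RTN4R-1 GapmeR1 0 of the 23 genes were called, with or without the block.

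The partners and relatives of WWOX were not called where lnc-ASTN1-1 GapmeR1 was compared with GapmeR2. Of 21 tested binding partners and p53 family genes 0 were called (median 0.019), of 27 tested short-chain dehydrogenase/reductase genes 0 (median 0.017), and of 21 tested p53 target genes 0 (median -0.091). With the replicate block 1 binding partner was higher, and still 0 relatives and 0 p53 targets were called. With lnc-RTN4R-1 GapmeR1, 3 binding partners were higher, namely the kinase gene GSK3B at 0.45 (adjusted p = 0.00418), LITAF at 0.35 (adjusted p = 0.041) and SMAD3 at 0.46 (adjusted p = 0.0473), and 0 relatives and 0 p53 targets were called, against 2.32% of all genes. The block gave 6 partners higher, 1 relative lower and 3 p53 targets higher. With lnc-RTN4R-1 GapmeR2, 3 partners were higher and 2 lower, 2 relatives higher and 3 lower, and 3 p53 targets higher, led by CDKN1A, the cell cycle inhibitor p21, at 0.47 (adjusted p = 4.95e-05), where 9.56% of all genes were called. The block gave 4 partners each way, 4 relatives higher and 5 lower, and 9 p53 targets higher. It also called more of all genes in every comparison, by the numbers given above. The percentages printed here are those of the fit without block, so block counts of the lists cannot be read against them. With lnc-NKX2-3-1 GapmeR1, 4 partners were higher and 2 lower, 7 relatives were lower and 0 higher, and 2 p53 targets moved each way. Of all genes 19.7% were called there and 11.6% were lower, and the lists were not tested as sets. The block gave 8 partners higher and 5 lower, 2 relatives higher and 11 lower, and 9 p53 targets higher and 3 lower. Of 22 unfolded protein and integrated stress response genes, 0 were called between the lnc-ASTN1-1 GapmeRs (median -0.162) and with lnc-RTN4R-1 GapmeR1 (median 0.125), and 1 was higher with lnc-NKX2-3-1 GapmeR1 (EDEM1) and with lnc-RTN4R-1 GapmeR2 (CALR). With the block 5 were higher with lnc-RTN4R-1 GapmeR1, 3 higher and 2 lower with lnc-NKX2-3-1 GapmeR1, and 6 higher and 5 lower with lnc-RTN4R-1 GapmeR2. Such counts were not limited to groups with low WWOX. The block gave 11 stress response genes higher with lnc-TIMM21-5 GapmeR1, 9 with lnc-NKX2-3-1 GapmeR2 and 1 with lnc-TIMM21-5 GapmeR2, and 0 lower in each. Of p53 targets it gave 6 higher and 1 lower with lnc-NKX2-3-1 GapmeR2.

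The genes whose group means most resembled each gene were sought over the 10 group means of log2 CPM among 13549 other genes with a mean of at least 1 CPM, as a description. The groups share their control samples, days and depth. WWOX and STX18 correlated with each other at Pearson r = 0.584 and Spearman rho = 0.491. For WWOX, genes among the most alike were ZNF33B (r = 0.913), UNC50 (0.911), NSDHL (0.901) and GALNT7-DT (0.896). They moved far less than WWOX, as UNC50 stood at 26.5 ± 1.16 CPM with lnc-ASTN1-1 GapmeR1 (SD, n = 3) and 31.0 ± 0.532 in the controls (n = 5). For STX18 they were TRMT11 and ENSG00000261770 (both 0.98), AGAP9 (0.979), MED13L (0.977) and NAA40 (0.975), which share a low mean with lnc-ASTN1-1 GapmeR1. TRMT11, a tRNA methyltransferase subunit gene, stood at 4.57 ± 0.52 CPM there and 11 ± 0.842 in the controls, and NAA40, an N-terminal acetyltransferase gene, at 39.4 ± 0.61 and 79.6 ± 2.22. TRMT11 held a run of 14 bases for lnc-ASTN1-1 GapmeR1 and NAA40 one of 12, while the other 3 had 7 to 10. By Spearman correlation, which ignores the size of the single low group, 0 of the 5 named for STX18 and 0 of those named for WWOX were among the 5 most alike.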

How the data were processed

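RNA of 27 REH samples in 10 groups was sequenced. The authors aligned reads with STAR (2.4.2a) to hg38 and deposited raw counts per gene for each strand setting. The annotation release was not given in the sources used here. The labels name ribodepleted stranded total RNA and the methods poly-A selection, which affects intronic and unpolyadenylated RNA. Counts of column 4, which held 95.27% of stranded counts, were used. Rows for unmapped, multimapping, ambiguous and unassigned reads were left out of totals and tests, so 71.48% to 77.0% of reads remained. Of 60619 identifiers, 56434 matched GENCODE v44, which gave symbols, coordinates, exons and introns.

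One edgeR (4.0.16, R 4.3.3) quasi-likelihood fit with robust dispersion covered all samples, with TMM normalisation, filterByExpr (minimum count 10, total 15) and 17 residual degrees of freedom. A pooled fit was used because groups held 2 or 3 samples. Controls were weighted by sample. P-values were adjusted over all 16268 genes by the Benjamini-Hochberg method, and genes with adjusted p under 0.05 are called. CPM were scaled by TMM-adjusted totals, with 2 as the prior count on the log2 scale. In a test on data simulated for lnc-ASTN1-1 GapmeR1 against GapmeR2, 83.5% of 200 genes changed by 1 in log2 were recovered and 3.47% of calls were false. Replicate numbers marked different days, per the study's methods, and samples of the same number deviated together (mean correlation 0.263 over 109 pairs, -0.13 over 218 pairs of different numbers). The fit with a replicate block is therefore given where it changes a call of WWOX or STX18. For neighbours and list genes it is given in part, and not every call that it changed is named.

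GapmeR sequences came from the study's oligonucleotide list. Their reverse complements were searched by sliding over the sense strand of hg38 gene spans and over GENCODE v44 transcripts (Python 3.11.15, numba 0.67.0). The genes named are WWOX, STX18, their neighbours (overlapping genes and 5 on each side within 3 Mb that passed the filter), the targets, the 5 most alike genes (1 for WWOX is not reported here), and up to 3 genes per list with the smallest adjusted p among those called between the lnc-ASTN1-1 GapmeRs or with a lnc-RTN4R-1 GapmeR. List genes named for lnc-NKX2-3-1 GapmeR1, for lnc-ASTN1-1 GapmeR1 and for lnc-TIMM21-5 GapmeR1 against controls were named after their values were seen. So were neighbours named for the block, NBEAL1 and KCTD1. Members and lists were chosen with earlier results of these data known. Alternatives were DESeq2 (1.42.0), RLE normalisation, other low-count filters, NTC as the controls, a fit of each comparison's samples, the replicate block, unstranded counts and samples left out. The counts by gene span and by run length, the search of spliced transcripts and the lnc-NKX2-3-1 GapmeR1 against GapmeR2 contrast were added after seeing the data.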

Additional observations from a re-analysis of the deposited data

Results flagged for a closer look

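WWOX and STX18 differed between both GapmeRs against lnc-NKX2-3-1, by a test of the difference itself. GapmeR1 was lower than GapmeR2, with a log2 fold change of -1.33 for WWOX (edgeR adjusted p = 8.97e-08) and of -0.51 for STX18 (edgeR adjusted p = 1.97e-05). All samples with GapmeR1 were below all with GapmeR2 in both genes. This contrast was added after the levels had been seen, and 17.8% of all genes were called in it, so a call alone does not set these genes apart. The cause of the differences was not tested.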

How the results depend on the processing

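WWOX and STX18 kept the direction and the call of their fall with lnc-NKX2-3-1 GapmeR1, against the controls and against GapmeR2, under every alternative run. The calls gained elsewhere were WWOX with lnc-NKX2-3-1 GapmeR2 against controls at -0.40 without the low-count filter and at -0.39 with the replicate block, and, with the replicate block, WWOX with lnc-TIMM21-5 GapmeR2 at -0.25, STX18 with lnc-RTN4R-1 GapmeR2 at -0.15 and STX18 between the lnc-RTN4R-1 GapmeRs at 0.18. The replicate block changed no other call of either gene. No alternative moved the median of all genes by over 0.1 in log2.

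The numbers of genes called, and so the background shares, depended on the setting. With the replicate block they were 776, 22, 5830 and 515 for lnc-ASTN1-1 GapmeR1 and GapmeR2 and lnc-NKX2-3-1 GapmeR1 and GapmeR2 against controls, 1432 and 4278 with the lnc-RTN4R-1 pair, 484 and 95 with the lnc-TIMM21-5 pair, 272, 4275 and 5439 between both GapmeRs of lnc-ASTN1-1, of lnc-RTN4R-1 and then of lnc-NKX2-3-1, 11 for NTC against medium, and 36 for the neighbours in place of 21. Without the low-count filter they were 30 for lnc-ASTN1-1 GapmeR2, 107 for lnc-NKX2-3-1 GapmeR2, 584 for lnc-RTN4R-1 GapmeR1, 152 and 45 for lnc-TIMM21-5 GapmeR1 and GapmeR2, and 96 for NTC against medium. DESeq2 gave 8, 16 and 56 for lnc-ASTN1-1 GapmeR2, lnc-NKX2-3-1 GapmeR2 and lnc-TIMM21-5 GapmeR1. With NTC only as controls there were 1, 209 and 19 for lnc-NKX2-3-1 GapmeR2, lnc-RTN4R-1 GapmeR1 and lnc-TIMM21-5 GapmeR1. Fits of each comparison's own samples gave 108 for lnc-ASTN1-1 GapmeR1, 0 for lnc-NKX2-3-1 GapmeR2, 241 and 996 for lnc-RTN4R-1 GapmeR1 and GapmeR2, 12 for lnc-TIMM21-5 GapmeR1, and 22 and 882 between the GapmeRs of lnc-ASTN1-1 and lnc-RTN4R-1. These fits hold fewer samples, and the cause of the other shifts was not tested.

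Leaving out samples gave ranges of 52 to 211 and 0 to 5 genes for lnc-ASTN1-1 GapmeR1 and GapmeR2 against controls, 944 to 4304 and 0 to 6 with the lnc-NKX2-3-1 pair, 65 to 487 and 430 to 1673 with the lnc-RTN4R-1 pair, 3 to 38 and 4 to 14 with the lnc-TIMM21-5 pair, 17 to 83 between the lnc-ASTN1-1 GapmeRs, 437 to 1376 between those of lnc-RTN4R-1, 820 to 3526 between those of lnc-NKX2-3-1, and 10 to 23 for the neighbours. The lowest of these came from leaving out a whole day (replicate 1 or 2), and for lnc-NKX2-3-1 GapmeR2 also from its replicate 2 alone. Of single libraries, replicate 3 of lnc-ASTN1-1 GapmeR2 took its count against controls to 1, any library of lnc-NKX2-3-1 GapmeR2, medium, or NTC replicate 1 or 2 took that of lnc-NKX2-3-1 GapmeR2 to between 0 and 3, any library of lnc-TIMM21-5 GapmeR1, medium replicate 2 or NTC replicate 1 took that of lnc-TIMM21-5 GapmeR1 to between 15 and 21, and replicate 2 or 3 of lnc-TIMM21-5 GapmeR2 took its count to 7. Further, replicate 1 of lnc-ASTN1-1 GapmeR1 took its count to 130, replicate 3 of GapmeR2 the count between them to 49, and replicates 1 and 2 of lnc-NKX2-3-1 GapmeR1 took its count to 1829 and 1544, and against GapmeR2 to 1812 and 1332. Replicates 1, 2 and 3 of lnc-RTN4R-1 GapmeR1 took its count to 232, 240 and 215, and replicates 2 and 3 of GapmeR2 to 983 and 1009. Between them, replicate 1 of GapmeR1 gave 979 and replicate 2 of GapmeR2 gave 966. Where a group was left with 1 sample, that sample was assumed to vary like the other groups. WWOX with lnc-NKX2-3-1 GapmeR1 against controls ranged from -1.96 to -1.52 and STX18 from -0.54 to -0.48. Allowing 1 or 3 mismatches, lnc-ASTN1-1 GapmeR1 had 0 or 6 sites in WWOX and 0 or 2 in STX18. Depth left 113 to 205 counts in the samples with the lowest WWOX per group.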
